A study of Mus musculus with 4 samples.

Results

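The 10 genes described here are receptors, ligands, the nuclear mediator and target genes of the Notch pathway: Notch1, Notch4, Dll1, Dll4, Jag1, Jag2, Rbpj, Hes1, Hey1 and Hey2. They were taken by symbol from the deposited gene table, which lists all 10 among its 24346 genes. The cells were cardiac endothelial cells of young C57BL/6 mice, sorted by FACS without culture, and their poly(A) RNA was sequenced. The ECp53KO group, read here as mice that lack p53 in endothelial cells, has 2 libraries (ECp53KO_170 and ECp53KO_172, numbered after their titles), and the Ctrl group, labelled wild type, also has 2 (Ctrl_178 and Ctrl_182). The labels give neither the Cre line, nor the exons removed, nor an age in weeks, and do not say that each library is 1 mouse. So p-values measure the spread between these libraries, which may be partly technical. Within each group the libraries also differ in the sex-linked genes Xist and Ddx3y, given below.

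Notch receptors are transmembrane proteins that are activated by ligands of the Delta-like and Jagged families on a neighbouring cell. Ligand binding exposes the receptor to ADAM proteases and then to gamma-secretase, which frees an intracellular fragment that joins the DNA-binding protein RBPJ and turns on genes of the HES and HEY families of transcriptional repressors. In endothelium the pathway is known for restraining sprouting and for arterial identity, with Dll4 and Notch1 as the central pair and Notch4 as a receptor found mainly in endothelial cells.

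RBPJ binds the core TGGGAA, most often as GTGGGAA, so the promoters of the genes were searched for both words on both strands. RefSeq promoter windows for GRCm38.p6, of 250 bases before and 50 after a transcript start, were at hand for 8 of the 10 genes, with Hes1 and Hey1 the others. Hey2 held 2 copies of GTGGGAA, at bases -207 to -201 on the antisense strand and -4 to 3 on the sense strand. Rbpj held the shorter core at -149 to -144 and -65 to -60 of its first window; the match at -205 to -200 of its overlapping second window is the -65 site again. Both Rbpj windows belong to starts inside the gene, whose listed interval begins at base 53555779, and no window at that base was searched. Neither word was in the windows of Notch1, Notch4, Dll1, Dll4, Jag1 or Jag2. Over all 32851 windows 6.38% held GTGGGAA and 25.6% held TGGGAA, which lies within it. A match describes the letters only. Shown here, up to 25 bases after the start, are the Hey2 and Rbpj windows, which hold the core, and those of both receptors, whose levels differed most between the ECp53KO libraries. Capitals mark TGGGAA or its reverse complement.
Hey2, chr10:30842759-30843033, minus strand: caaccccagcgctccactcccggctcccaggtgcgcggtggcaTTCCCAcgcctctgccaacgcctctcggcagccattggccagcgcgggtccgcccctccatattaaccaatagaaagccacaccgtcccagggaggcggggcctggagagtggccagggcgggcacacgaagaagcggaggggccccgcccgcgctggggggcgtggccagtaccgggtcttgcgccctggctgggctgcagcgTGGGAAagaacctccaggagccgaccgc
Rbpj, chr5:53590096-53590370, plus strand: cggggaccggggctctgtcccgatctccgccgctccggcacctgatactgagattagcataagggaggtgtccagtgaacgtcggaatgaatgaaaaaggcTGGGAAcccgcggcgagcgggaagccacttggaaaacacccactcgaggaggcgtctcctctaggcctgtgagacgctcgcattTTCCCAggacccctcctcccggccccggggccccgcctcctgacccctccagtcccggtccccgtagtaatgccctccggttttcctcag
Notch1, chr2:26503798-26504072, minus strand: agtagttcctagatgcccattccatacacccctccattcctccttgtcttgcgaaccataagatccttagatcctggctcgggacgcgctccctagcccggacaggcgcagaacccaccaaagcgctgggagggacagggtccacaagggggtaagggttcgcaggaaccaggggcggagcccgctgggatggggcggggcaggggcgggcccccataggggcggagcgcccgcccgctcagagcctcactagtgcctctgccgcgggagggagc
Notch4, chr17:34564045-34564319, plus strand: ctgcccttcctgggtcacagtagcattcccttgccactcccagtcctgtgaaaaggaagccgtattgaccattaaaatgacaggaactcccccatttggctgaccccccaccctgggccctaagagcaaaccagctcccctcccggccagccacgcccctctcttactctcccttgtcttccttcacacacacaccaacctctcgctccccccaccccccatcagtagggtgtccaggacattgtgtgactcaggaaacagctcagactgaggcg

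Levels are FPKM as deposited, that is fragments scaled by transcript length and library size. They allow only a rough comparison between genes, since ECp53KO_170 kept a trend with transcript length, given below. Trp53, the gene named in the genotype, had 4.41 and 2.45 FPKM in ECp53KO_170 and ECp53KO_172, against 52.1 and 28.8 FPKM in Ctrl_178 and Ctrl_182. Its log2 fold change was -3.20 (limma adjusted p = 0.146, and 0.0127 without small RNA loci). The label endothelial cell held: the 12 endothelial markers summed to between 6549 and 6848 FPKM in every library, the 8 fibroblast markers to between 29.0 and 32.3 FPKM and the 8 leukocyte markers to at most 8.16 FPKM, with Cd3e listed at 0 in all libraries. The sums for mural cells, cardiomyocytes and red cells were highest in ECp53KO_170, and those for leukocytes and endocardium were higher in both Ctrl libraries than in either ECp53KO library. The 11 mural markers summed to 185 and 149 FPKM in ECp53KO, against 98.7 and 118 FPKM in Ctrl. Cardiomyocyte markers summed to 312 and 159 FPKM, against 162 and 148 FPKM, and erythroid markers to 410.5 and 89.3 FPKM, against 60.3 and 33.5 FPKM. Estimated depth was 11400000 and 9900000 fragments in ECp53KO_170 and ECp53KO_172, against 11000000 and 22500000 in Ctrl_178 and Ctrl_182. Relative to the other libraries, ECp53KO_170 had less signal from long transcripts, with a median difference of 0.28 on the log2(FPKM + 1) scale for transcripts up to 2 kb and -0.23 for those over 6 kb. Xist, transcribed from the inactive X chromosome, had 0.0230 and 23.0 FPKM in ECp53KO_170 and ECp53KO_172, against 0.0352 and 23.9 FPKM in Ctrl_178 and Ctrl_182, so each group held 1 library with and 1 without it. The Y-linked Ddx3y was at 17.1 and 0.0422 FPKM in the ECp53KO libraries, against 21.7 and 0.912 FPKM in Ctrl. In each group the library without Xist had the high Ddx3y, so its libraries were not repeats of 1 RNA sample.

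Of the 10 genes, 9 had a mean of at least 1 FPKM and were tested for a difference between ECp53KO and Ctrl, and 0 passed (limma on log2(FPKM + 1), Benjamini-Hochberg adjusted over 11332 genes, lowest adjusted p = 0.864). None had an unadjusted p under 0.05 either. Over all tested genes 0.115% passed the adjusted threshold of 0.05 and 4.78% an unadjusted 0.05, so 0 of 9 is no result about these genes. Fold changes were negative for 7 and positive for 2, with a median log2 fold change of -0.19, where the median of all tested genes was 0.01. In 4 (Notch1, Notch4, Jag1 and Hes1) both ECp53KO libraries were below both Ctrl libraries, and in 0 above. Among all 11332 genes tested, 16.8% lay lower without overlap and 19.1% higher. In bulk RNA, less RNA per cell and fewer cells of a type with the gene cannot be told apart. With 2 libraries a side, exact permutation p-values reach no lower than 0.333, so none was computed.

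**Figure D1:**
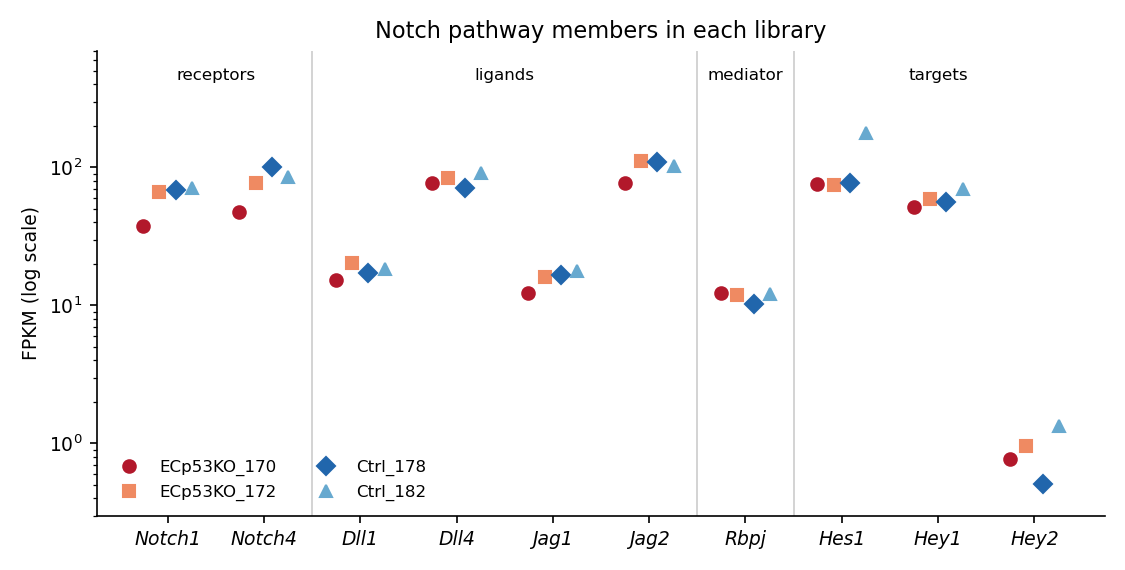
FPKM (log axis) of the 10 genes in each of the 4 libraries; a point is 1 library and genes are ordered by role. Notch1 and Notch4 are lowest in ECp53KO_170 (37.7 and 47.3 FPKM), Hes1 is highest in Ctrl_182 (177.6 FPKM), and Hey2 lies near 1 FPKM throughout.

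Both receptors were abundant and low in 1 ECp53KO library. Notch1 (chromosome 2, 26457902 to 26503822, GRCm38) had 37.7 and 66.9 FPKM in ECp53KO_170 and ECp53KO_172, against 68.1 and 71.4 FPKM in Ctrl_178 and Ctrl_182. The groups did not overlap, but ECp53KO_172 was close to Ctrl_178, and ECp53KO_170 alone was far below. Its log2 fold change was -0.47 ± 0.29 (SE, 95% interval -1.21 to 0.28, limma adjusted p = 0.864). Without ECp53KO_170 it was -0.06, and without ECp53KO_172 it was -0.87. The kit keeps no strand, and 1068 and 414 exon bases of Notch1 lie opposite exons of 0610009E02Rik and Gm13568, so that reads there could come from either strand.

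Notch4 (chromosome 17, 34564286 to 34588543) showed the same order within ECp53KO, at 47.3 and 76.8 FPKM in ECp53KO_170 and ECp53KO_172, against 99.9 and 85.8 FPKM in Ctrl_178 and Ctrl_182. Here ECp53KO_172 was also below both Ctrl libraries. Its log2 fold change of -0.61 ± 0.27 (SE, 95% interval -1.29 to 0.07, limma adjusted p = 0.864) had the smallest unadjusted p of the tested members, 0.0701. It was -0.27 without ECp53KO_170 and -0.95 without ECp53KO_172. With small RNA loci left out of the fit the unadjusted p was 0.0357 and the limma adjusted p 0.789.

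Together Notch1 and Notch4 made up nearly all receptor signal. They gave 96.3% and 97.0% of the summed FPKM of the 4 Notch receptors in ECp53KO_170 and ECp53KO_172, against 97.7% and 97.4% in Ctrl_178 and Ctrl_182. That sum averaged 118 ± 42.3 FPKM in ECp53KO and 167 ± 7.55 FPKM in Ctrl (SD, n = 2 each), with ECp53KO_170 lowest at 88.3 FPKM. Both receptors were low in the same library, and the ratio of Notch1 to Notch4 was 0.796 and 0.870 in ECp53KO, against 0.682 and 0.833 in Ctrl, and the groups overlapped.

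**Figure D2:**
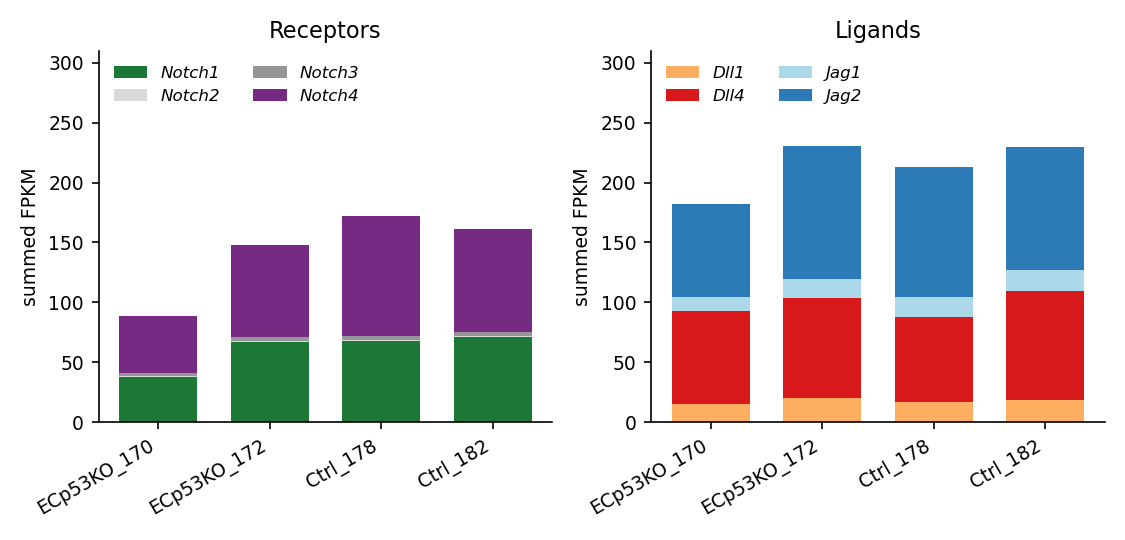
Stacked bars of FPKM for the 4 Notch receptors (left) and the 4 ligands (right), 1 bar per library, from 0. Receptor signal is nearly all Notch1 and Notch4 and is lowest in ECp53KO_170 (88.3 FPKM); Dll4 and Jag2 make up 84.2% to 84.9% of ligand signal.

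The low receptor signal in ECp53KO_170 stood beside the length trend of that library. The longest coding transcripts of Notch1 and Notch4 have 9488 and 6591 bases, the longest of the 10 genes, with a GC share of 57.1% and 61.2%. On the log2(FPKM + 1) scale ECp53KO_170 differed from the mean of the other 3 libraries by -0.85 for Notch1 and -0.86 for Notch4. After removal of each library's trend on transcript length, these differences were -0.56 for Notch1 and -0.67 for Notch4, and the log2 fold changes between the groups were -0.34 and -0.52. With the trend on GC share removed as well, a setting chosen after seeing the data, the differences were -0.42 and -0.43 and the fold changes -0.25 and -0.37. Of the 9 tested members 6 were lowest in ECp53KO_170, among them Dll1 and Hey1 with transcripts of 3581 and 2423 bases. Of all tested genes other than small RNA loci 30.3% were lowest there. The share was 51.2% of those with a transcript over 4 kb and 20.1% of those with one up to 4 kb. The difference of ECp53KO_170 from the other libraries had a Spearman's rho of -0.55 with transcript length over the 9 members and of -0.47 over 10707 tested genes, given as a description since genes share their libraries. Some members went against the trend. Rbpj, at 5485 bases, was above the mean of the other libraries by 0.10. Hey1, at 2423 bases, differed by -0.25, and by -0.33 with the length trend removed. Hes1, at 1468 bases, differed by -0.40, and by -0.64 with the length trend removed, but this was not particular to ECp53KO_170. For Hes1, ECp53KO_172 and Ctrl_178 differed from the mean of their other libraries by -0.45 and -0.37, and only Ctrl_182 was high, by 1.22.

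**Figure D3:**
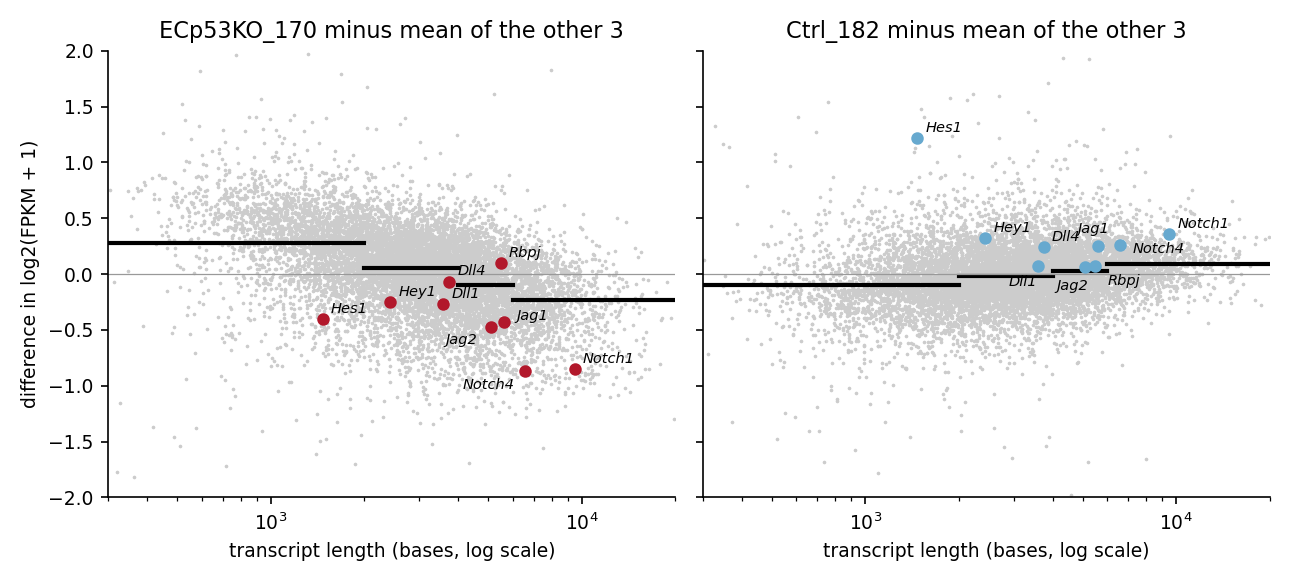
Difference in log2(FPKM + 1) of 1 library from the mean of the other 3 against transcript length (log axis), for ECp53KO_170 (left) and Ctrl_182 (right). Grey points are tested genes within 2 units of 0, black bars medians by length class (0.28 up to 2 kb and -0.23 over 6 kb on the left), and coloured points the 9 members; Notch1 and Notch4 are lowest on the left and Hes1 is highest on the right.

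The ligands fell into an abundant and a scarcer pair, and the groups overlapped for all but Jag1. Dll4 (chromosome 2, 119325784 to 119335666), the main Delta-like ligand of endothelium, had 77.4 and 83.3 FPKM in ECp53KO_170 and ECp53KO_172, against 70.6 and 91.0 FPKM in Ctrl_178 and Ctrl_182. Both ECp53KO libraries lay between the Ctrl libraries. Its log2 fold change was 0.00 ± 0.19 (SE), and the 95% interval of -0.48 to 0.48 bounds the difference on this scale. Likewise 214 exon bases of Dll4 lie opposite exons of Gm14207 (11.7 and 8.21 FPKM in ECp53KO libraries, against 10.9 and 7.51 FPKM in Ctrl), so reads of the pair cannot be told apart there.

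Jag2 (chromosome 12, 112907803 to 112929812), a Jagged-family ligand, was at 77.1 and 111 FPKM in ECp53KO_170 and ECp53KO_172, against 109 and 102 FPKM in Ctrl_178 and Ctrl_182. The groups overlapped, with ECp53KO_170 again lowest and ECp53KO_172 highest. The log2 fold change was -0.19 ± 0.22 (SE, 95% interval -0.76 to 0.38). It was 0.07 without ECp53KO_170 and 0.03 with the length and GC trends removed.

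Jag1 (chromosome 2, 137081451 to 137116520), the other Jagged ligand, known in endothelium as an antagonist of Dll4 in sprouting, was scarcer. It had 12.2 and 16.1 FPKM in ECp53KO_170 and ECp53KO_172, against 16.6 and 17.9 FPKM in Ctrl_178 and Ctrl_182. ECp53KO_172 was just below Ctrl_178, so the lack of overlap rests on a small gap. The log2 fold change was -0.28 ± 0.19 (SE, 95% interval -0.75 to 0.20, limma adjusted p = 0.864), and -0.09 without ECp53KO_170.

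Dll1 (chromosome 17, 15367354 to 15376932), a second Delta-like ligand, had 15.2 and 20.2 FPKM in ECp53KO_170 and ECp53KO_172, against 17.04 and 18.4 FPKM in Ctrl_178 and Ctrl_182. The ECp53KO libraries lay on both sides of Ctrl. The log2 fold change was -0.01 ± 0.19 (SE, 95% interval -0.49 to 0.47). Of its exon bases 867 lie opposite exons of A930024N18Rik.

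The joint share of Dll4 and Jag2 in the ligand signal was nearly constant, while ratios between single ligands varied. Dll4 and Jag2 gave 84.9% and 84.3% of the summed FPKM of the 4 ligands in ECp53KO_170 and ECp53KO_172, against 84.2% in both Ctrl libraries. The ratio of Dll4 to Jag2 was 1.004 and 0.749 in ECp53KO_170 and ECp53KO_172, against 0.647 and 0.890 in Ctrl_178 and Ctrl_182, and the groups overlapped. Dll4 exceeded Jag1 by a factor of 6.32 and 5.19 in ECp53KO, against 4.26 and 5.09 in Ctrl. This ratio was higher in both ECp53KO libraries than in either Ctrl library, with ECp53KO_172 only just above Ctrl_182. Jag2 exceeded Jag1 by a factor of 6.30 and 6.93 in ECp53KO, against 6.58 and 5.72 in Ctrl, where the groups overlapped.

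Rbpj (chromosome 5, 53555779 to 53657445), the DNA-binding partner of the cleaved receptor, was the most even member. It had 12.2 and 11.9 FPKM in ECp53KO_170 and ECp53KO_172, against 10.2 and 12.0 FPKM in Ctrl_178 and Ctrl_182, and its highest value was 1.204 times its lowest. The groups overlapped, at a log2 fold change of 0.12 ± 0.16 (SE, 95% interval -0.30 to 0.53). The gene has processed pseudogenes, Rbpj-ps1 and Rbpj-ps3 in GENCODE M21, and how reads shared with them were counted was not stated, so its level is uncertain.

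Of the 3 target genes, 2 were abundant and Hey2 was scarce. Hes1 (chromosome 16, 30065357 to 30067796), a repressor of the HES family that signals other than Notch also induce, was even in 3 libraries and high in the remaining one. It had 75.9 and 74.1 FPKM in ECp53KO_170 and ECp53KO_172, against 77.4 and 177.6 FPKM in Ctrl_178 and Ctrl_182. Means were 75.0 ± 1.27 FPKM in ECp53KO and 128 ± 70.8 FPKM in Ctrl (SD, n = 2 each). The lack of overlap rests on a small gap between ECp53KO_170 and Ctrl_178. Its log2 fold change of -0.64 ± 0.40 (SE, 95% interval -1.66 to 0.38, limma adjusted p = 0.864) was -0.05 without Ctrl_182 and -1.23 without Ctrl_178.

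The value of Hes1 in Ctrl_182 was 2.29 times that in Ctrl_178, and few genes stood out in that library so far. In Ctrl_182 24 of 11106 tested genes other than small RNA loci (0.216%) were more than 2 times as high as in each other library, a count made after the value of Hes1 was seen. Hey1 was also highest there, but by less. Of the lists, the 5 endocardial markers summed to 43.0 and 41.8 FPKM in ECp53KO_170 and ECp53KO_172, against 51.9 and 68.8 FPKM in Ctrl_178 and Ctrl_182, and so were also highest in Ctrl_182. Most of the sum in Ctrl_182 was Cytl1, at 43.6 FPKM. Cytl1, Npr3 and Foxc1 were highest in Ctrl_182. Plvap was highest in Ctrl_178 (13.5 FPKM, against 11.6 FPKM in Ctrl_182) and Hand2 in ECp53KO_172 (1.57 FPKM, against 1.30 FPKM in Ctrl_182). The part of these markers in the Hes1 value was not tested.

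Hey1 (chromosome 3, 8663359 to 8667038), a repressor that Notch signalling induces directly in endothelium, was at 51.3 and 59.1 FPKM in ECp53KO_170 and ECp53KO_172, against 55.8 and 69.5 FPKM in Ctrl_178 and Ctrl_182. The groups overlapped, with a log2 fold change of -0.18 ± 0.18 (SE, 95% interval -0.64 to 0.29). Hes1 exceeded Hey1 by a factor of 1.48 and 1.25 in ECp53KO, against 1.39 and 2.56 in Ctrl.

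Hey2 (chromosome 10, 30832359 to 30842783), the close relative of Hey1 that is needed for arterial fate in zebrafish, was nearly silent. It had 0.769 and 0.964 FPKM in ECp53KO_170 and ECp53KO_172, against 0.510 and 1.33 FPKM in Ctrl_178 and Ctrl_182. Both ECp53KO libraries lay between the Ctrl libraries. These values stand for about 22 and 24 estimated fragments in ECp53KO and 14 and 76 in Ctrl, so counting error alone is large. Its mean of 0.893 FPKM was under the filter of 1 FPKM, and in a fit of all 24346 genes its log2 fold change was -0.01 (95% interval given by limma -0.97 to 0.95). Hey1 exceeded Hey2 by a factor of 66.7 and 61.3 in ECp53KO, against 109 and 52.3 in Ctrl.

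**Figure D4:**
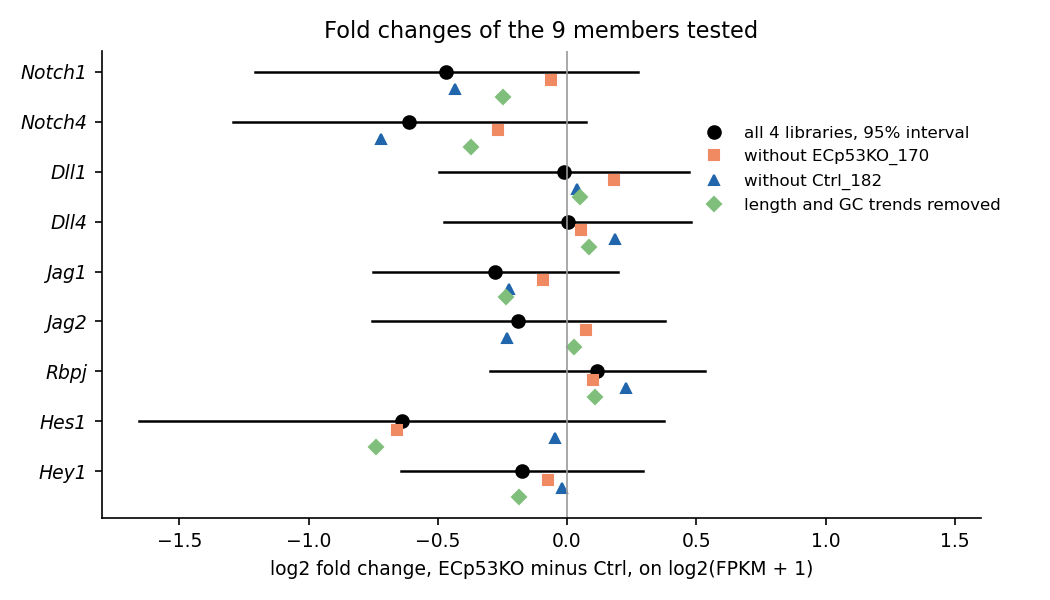
Log2 fold change of ECp53KO minus Ctrl for the 9 tested members (black, with its 95% interval from limma) and the value without ECp53KO_170, without Ctrl_182, or with length and GC trends removed. Every interval of the fit with all 4 libraries holds 0; Notch1 is near 0 without ECp53KO_170 and Hes1 near 0 without Ctrl_182.

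Over the 4 libraries the order of mean levels was Hes1 (101 ± 50.9 FPKM, SD, n = 4), Jag2 (99.9 ± 15.7), Dll4 (80.6 ± 8.70), Notch4 (77.5 ± 22.2), Notch1 (61.0 ± 15.7), Hey1 (58.9 ± 7.74), Dll1 (17.7 ± 2.12), Jag1 (15.7 ± 2.42), Rbpj (11.6 ± 0.955) and Hey2 (0.893 ± 0.345). The ranges of neighbours in this order were apart at 3 places, between Hey1 and Dll1, Jag1 and Rbpj, and Rbpj and Hey2. Among the 6 abundant genes no neighbours had separate ranges, although Notch4 was above Notch1 in all 4 libraries. Hes1, first by its mean, was above Jag2 in 1 of 4 libraries, Ctrl_182. By mean level Hes1, Jag2 and Dll4 stood above about 90% of the tested genes (percentiles 92.1, 92.0 and 90.1) and Rbpj near the middle (47.7).

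The remaining pathway genes gave no call either. Of 57 genes in 8 lists, 45 were tested, and by limma 0 passed adjustment over all genes, with 0 higher and 2 lower at an unadjusted p under 0.05, where 4.78% of all tested genes passed that level in either direction. In ECp53KO 6 were higher and 10 lower without overlap between the groups, beside 19.1% and 16.8% of all tested genes, and the median log2 fold change was -0.05. Of those with a transcript over 4 kb, 13 of 23 (56.5%) were lowest in ECp53KO_170, beside 51.2% of all tested genes of that length. Of those with a shorter one, 8 of 22 (36.4%) were lowest there, beside 20.1% of all such genes.

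**Figure D5:**
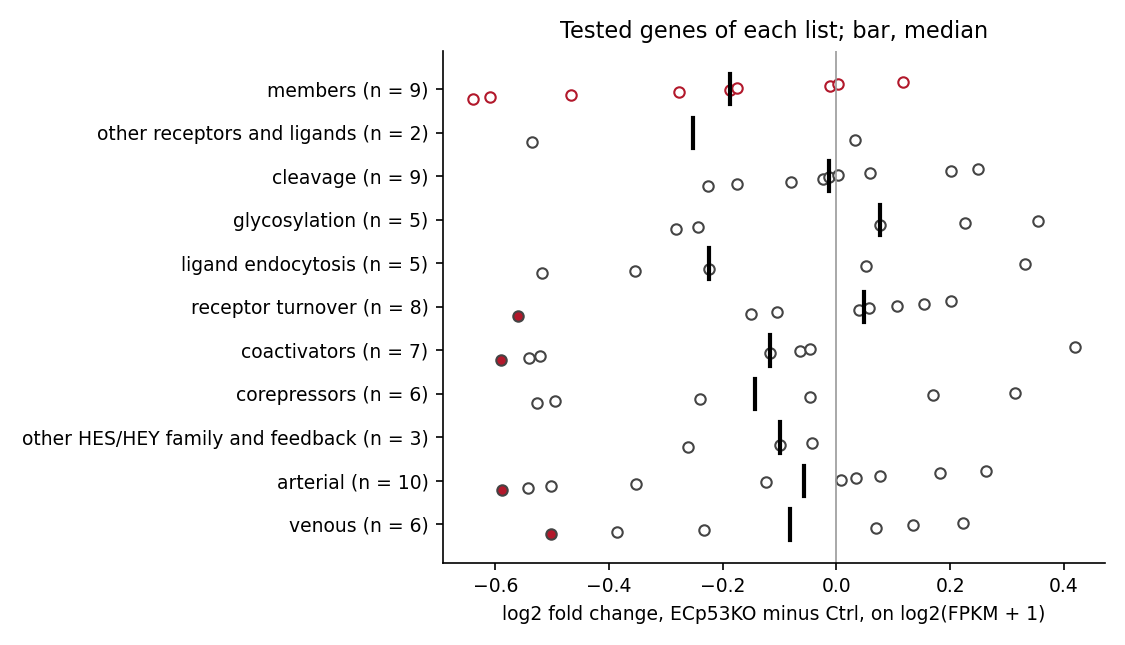
Log2 fold change (ECp53KO minus Ctrl) of each tested gene, 1 point per gene, for the members and 10 lists; bars are medians and filled points have an unadjusted limma p under 0.05. Points run from -0.64 (Hes1) to 0.42 (Snw1). The 3 tested HES/HEY and feedback genes lie at -0.26 (Hes6), -0.10 (Heyl) and -0.04 (Nrarp). Of all 11332 tested genes 5475 were below 0.

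The other 2 receptors were scarce. Notch3, a receptor known from pericytes and smooth muscle, had 2.77 and 3.91 FPKM in ECp53KO_170 and ECp53KO_172, against 3.13 and 3.28 FPKM in Ctrl_178 and Ctrl_182. The groups overlapped. Of 9 tested mural markers 9 had positive fold changes and 4 were higher without overlap, beside 19.1% of all tested genes. Among them Acta2, Myl9 and Tagln had unadjusted limma p-values under 0.05 and log2 fold changes of 1.04, 0.95 and 0.77. Rgs5 was also higher without overlap, at 91.9 and 77.3 FPKM in ECp53KO, against 52.5 and 68.6 FPKM in Ctrl (log2 fold change 0.48). The other tested mural markers overlapped between the groups as Notch3 did, with log2 fold changes from 0.01 (Abcc9) to 0.38 (Des). Notch2 had 0.537 and 0.563 FPKM, against 0.798 and 0.853 FPKM, and was under the filter. Dlk2, a Delta-like relative without the domain that activates receptors, had 0.676 and 0.772 FPKM in ECp53KO, against 1.61 and 1.39 FPKM in Ctrl (log2 fold change -0.54, limma adjusted p = 0.864). Dll3 and Dlk1 were listed at 0 in at least 3 libraries.

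Genes that process the receptor gave values on both sides of 0. Of 10 genes of cleavage 9 were tested, with 4 positive and 5 negative fold changes. Psenen, a small subunit of gamma-secretase and the most abundant of the list, had 154 and 117 FPKM in ECp53KO, against 121 and 113 FPKM in Ctrl. Aph1b, another subunit gene, has a near-identical copy, Aph1c, so that both are uncertain. Of 5 sugar-adding enzymes, Mfng, one of the fringe enzymes that tune ligand choice, led in level at 70.6 and 66.1 FPKM, against 64.1 and 52.9 FPKM. Poglut1, which adds glucose to the receptor, stood at 26.8 and 20.9 FPKM in ECp53KO, against 19.5 and 17.2 FPKM in Ctrl (log2 fold change 0.35).

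Genes of ligand endocytosis and receptor turnover had medians of -0.22 and 0.05. Epn1, an endocytic adaptor, was the most abundant of the first list at 55.0 and 61.3 FPKM, against 73.3 and 63.1 FPKM in Ctrl. Neurl1b, a ubiquitin ligase for ligands, was at 2.50 and 5.38 FPKM, against 5.94 and 5.60 FPKM in Ctrl, with ECp53KO_170 far below the others. Of the turnover genes the ubiquitin ligase gene Nedd4 was the most abundant, with 147 and 140 FPKM in ECp53KO libraries, against 147 and 129 FPKM in Ctrl. Numbl, an adaptor related to the Notch inhibitor Numb, had 2.35 and 2.22 FPKM, against 3.65 and 4.03 FPKM (log2 fold change -0.56 ± 0.19 SE, limma adjusted p = 0.864, unadjusted p = 0.0327).

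Nuclear partners of the receptor fragment were mixed. Of 7 coactivators 6 had negative fold changes, beside 5475 of all 11332 tested genes. Maml3, of the Mastermind family that bridges the receptor fragment to acetyltransferases, had 1.47 and 1.81 FPKM in ECp53KO, against 3.37 and 2.60 FPKM in Ctrl (log2 fold change -0.59 ± 0.23 SE, limma adjusted p = 0.864, unadjusted p = 0.0472). Snw1, the most abundant, had the one positive fold change, at 49.9 and 40.7 FPKM, against 34.5 and 32.4 FPKM (log2 fold change 0.42). Among 6 tested corepressors none was without overlap, and Hdac1 led in level at 77.8 and 48.1 FPKM, against 46.4 and 51.8 FPKM. Nrarp, a feedback inhibitor that Notch itself induces, was steady, at 29.4 and 29.7 FPKM in ECp53KO, against 31.3 and 29.8 FPKM in Ctrl, a log2 fold change of -0.04 ± 0.14 (SE, 95% interval -0.40 to 0.32). Hes6 stood at 10.2 and 11.5 FPKM, against 12.4 and 14.0 FPKM, and Heyl at 1.504 and 1.51 FPKM, against 1.29 and 2.15 FPKM.

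Arterial genes, some of which Notch controls, had 5 positive and 5 negative fold changes. Nrp1, a coreceptor for VEGF and semaphorins, was the most abundant, with 287 and 267 FPKM in ECp53KO libraries, against 292 and 203 FPKM in Ctrl. Fbln5, which encodes an elastic fibre protein, had 13.2 and 17.3 FPKM, against 23.9 and 22.7 FPKM (log2 fold change -0.59, limma adjusted p = 0.864, unadjusted p = 0.0224). Efnb2, the ephrin ligand that marks arteries, overlapped between the groups at 63.4 and 70.4 FPKM, against 68.0 and 78.1 FPKM. Of the venous genes, Nr2f2, whose product opposes Notch in veins, had 2.98 and 3.604 FPKM, against 5.03 and 5.09 FPKM (log2 fold change -0.50, limma adjusted p = 0.864, unadjusted p = 0.0431), and Aplnr, the most abundant, had 144 and 136 FPKM, against 168 and 106 FPKM. Of the marker lists, Dpt, Hba-a1, Hba-a2 and Hbb-b1 (positive fold changes) and Lyve1, Npr3 and Foxc1 (negative) also had an unadjusted p under 0.05 (limma adjusted p = 0.864 each).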

How the data were processed

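Poly(A)-selected RNA of 4 libraries was prepared with a TruSeq kit that keeps no strand and sequenced in pairs, per the labels' protocols. Per the submitters' processing notes the build was mm10 and the tools were Cufflinks 2.2.1, TopHat2 2.1.0, Trimmomatic 0.36, FastQC 0.11.5 and bcl2fastq 2.17, with no role given; the annotation was not stated. The authors deposited FPKM values per gene, 1 column per library, and count models were therefore not applied. Values were analysed as log2(FPKM + 1) for the 11332 genes averaging 1 FPKM or more. ECp53KO was compared with Ctrl with a trended, two-sided limma fit (limma 3.58.1, R 4.3.3), Benjamini-Hochberg adjusted over all tested genes at 0.05. The fit had 2 residual degrees of freedom and a prior of 3.15. It was also run on simulated data with independent noise and no small RNA loci, which does not show its power here. A fold on this scale understates changes of low genes.

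Depth was estimated from the value of 1 fragment, taken as the commonest length-multiplied FPKM of 1037 low genes with a single transcript, and fragment numbers cover counting error only. Lengths and GC are of the longest coding GENCODE M21 transcript, and positions and promoters are RefSeq's for GRCm38.p6, which is mm10. The members and lists were chosen with earlier results of these data known. Named are all members, list genes with an unadjusted p under 0.05, and per list the most abundant gene and the one most changed without overlap, except 1 gene that is not reported here; Cd3e, Gm14207, Efnb2, Notch2, Dll3, Dlk1, Aph1b, Aph1c, Heyl, Ddx3y and Xist were added after their values were seen. Alternatives were a pseudocount of 0.1, no filter or a mean of at least 5 FPKM, robust shrinkage, TPM and median scaling, the length trend removed, length and GC trends removed, no small RNA loci (226 of the tested genes), Xist above 1 FPKM as a covariate, and each library left out.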

Additional observations from a re-analysis of the deposited data

How the results depend on the processing

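No tested member and no pathway gene passed the adjusted threshold in any alternative (limma adjusted p of the members at least 0.0767, for Notch4 without small RNA loci and without ECp53KO_172). No paired analysis was possible because no replicate number occurs in both groups. Notch1, Notch4, Jag1, Hey1 and Hes1 had negative log2 fold changes and Rbpj positive ones in all 19 fits run. Many of these fits could not change the sign. The filters, robust shrinkage, the Xist covariate and leaving out small RNA loci all left each member's fold change as it was. The sign of 3 members near 0 turned. Dll1 was 0.0171 with median scaling, 0.0513 with length and GC trends removed, and -0.21 to 0.18 on leaving out a library, with or without small RNA loci. Dll4 was -0.11 with TPM scaling and -0.18 to 0.18 on leaving out a library. Jag2 was 0.0252 with length and GC trends removed and -0.45 to 0.0737 on leaving out a library. Scaling to TPM moved the median of all tested genes to -0.10, against 0.01 as deposited. Over all genes, 3 higher and 10 lower were called. The higher count was 5 with a pseudocount of 0.1 and 5 with robust shrinkage. The lower count was 33 without a filter, 6 with length and GC trends removed and 4 without small RNA loci. Leaving out a library gave 1 to 21 higher and 12 to 58 lower, and without small RNA loci as well 5 to 12 higher and 4 to 18 lower. A library left alone in its group was assumed to vary like the other group. With 2 libraries per group, the members' 95% intervals were 0.831 (Rbpj) to 2.03 (Hes1) log2 units wide from end to end. The cause of these changes was not tested. The length and GC setting was chosen after seeing the data.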
